A study of Mus musculus with 3 samples.

Results

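The striated muscle myosins measured here were 9 chains and 1 kinase: the cardiac heavy chains Myh6 and Myh7, the cardiac light chains Myl2, Myl3, Myl4 and Myl7, the skeletal chains Myl1, Myh8 and Myh3, and Mylk3, the cardiac kinase of the regulatory light chain. They were chosen by name, with earlier results of these data known. They were taken from the arrays as every non-control probe whose array accession belongs to 1 of the 10 genes. All 10 genes were found, on 15 of 39429 probes. Of these 15 probes, 13 were bright enough to be tested, and each of the 10 genes had at least 1 of them, among 19802 genes tested in all. The study set Hopx-/- mouse embryoid bodies (null below) against Hopx+/- ones (heterozygous below), which keep 1 intact copy of the gene, at day 8 of cardiac differentiation. Cultures began as hanging drops of stem cells and were later plated in medium with the growth factors VEGF (5 ng/ml), FGF10 (12.5 ng/ml) and bFGF (10 ng/ml), plus 1 mM ascorbic acid and 2 mM Glutamax. The drops held 10% FBS, and both genotypes of stem cells had been derived with a MEK1 inhibitor at 50 µM, which was later withdrawn. Both genotypes carried at least 1 mutant copy, and neither was wild type. Embryoid bodies are aggregates of differentiating embryonic stem cells. The stem cells were derived from blastocysts and grown on feeder cells, and the labels do not say how many lines of each genotype were used. Each of 3 replicates was 1 Agilent array carrying null RNA in 1 dye and heterozygous RNA in the other.

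Myosin is the motor of the thick filament of muscle. Each molecule joins a pair of heavy chains, which hydrolyse ATP and pull on actin, with essential and regulatory light chains that stiffen and tune the neck of the motor. The isoforms mark the muscle type: Myl7 and Myl4 are the regulatory and essential chains of the atrium, Myl2 and Myl3 those of the ventricle, and Myl1, Myh3 and Myh8 belong mainly to developing and fast skeletal muscle. In the mouse heart Myh7 prevails in the ventricle before birth and Myh6 after it. Early heart tubes carry atrial and ventricular chains together.

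The direction of replicate 3 is not settled by the labels, which give Cy5 to null RNA on all 3 arrays. As labelled, the log2 ratios of replicate 3 correlated across probes at r = -0.874 with each of the other arrays, which correlated with each other at r = 0.924. The authors' deposited value table runs with the scanner ratios for replicates 1 and 2 (r = 0.929 and r = 0.919 across spots) and against them for replicate 3 (r = -0.867). Every ratio given here sets null against heterozygous RNA, with the sign of replicate 3 following that table, so that its null RNA is taken to be in Cy3. Hopx, the targeted gene, had normalised log2 signals of 7.57, 7.63 and 7.15 in null RNA and 10.55, 10.59 and 10.59 in heterozygous RNA, in the order of replicates 1 to 3 with that turn. Between 61.9% and 72.9% of spots were well above background in a channel, and 3 arrays limit the precision. All 3 arrays were on 1 slide and in 1 scan.

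All 6 cardiac chains fell in null embryoid bodies, from 39.7-fold for Myh6 to 9.75-fold for Myl2, and Myh6 and Myh7 had the lowest and next lowest ratio of the 19802 genes. Of the skeletal chains, Myl1 and Myh8 fell and Myh3 rose. Mylk3 fell by less than the others. In all, 9 of 10 members fell and 1 rose at adjusted p under 0.05 by limma, against 30.1% of all genes lower, 30.2% higher and 60.3% either way. At that threshold and at least 2-fold, 8 of the 10 were lower, against 6.03% of all genes, and 0 of the 10 higher, against 4.87%. Lower by at least 8-fold were 6 of the 10, against 0.197% of all genes. Since the members were chosen with earlier results of these data known, these counts are a description. With replicate 3 as labelled, 0 of the 10 and 0 of all genes were called by limma, and 61 genes and 0 of the 10 had an unadjusted p under 0.05. RNA came from whole cultures, so fewer cardiac muscle cells and less myosin RNA per cell cannot be told apart. Nothing in the labels says whether replicates were separate lines or separate cultures, so the p-values cover only the spread among these samples, which may be technical.

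Myh6 encodes the alpha heavy chain. Its normalised log2 signal was 15.59, 15.15 and 15.30 in heterozygous RNA and 10.45, 10.15 and 9.50 in null RNA. The groups were far apart, and null RNA of replicate 3 was lowest. The log2 ratio was -5.14, -5.001 and -5.79 on the 3 arrays, a mean of -5.31 (SD 0.42, moderated SE 0.14, n = 3 arrays, adjusted p = 1.3e-07 by limma). The signal left in null RNA was 2.52% of the heterozygous signal, and it was still well above background on all 3 arrays. A dimmer probe of Myh6 was not well above background in null RNA on any array. Its ratio is thus only a bound, at least 2.61-fold lower in null RNA (mean log2 ratio -1.39). That probe passed the filter through heterozygous RNA alone, where it was brighter, so its test adds no support.

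Myh7 encodes the beta heavy chain, the slow isoform, and lies next to Myh6 on chromosome 14. Its heterozygous signals were 15.60, 15.17 and 15.14 and its null signals 10.49, 10.33 and 9.76. As for Myh6, the genotypes did not overlap and replicate 3 had the lowest null signal. The ratio was -5.11 on average (array values -5.11, -4.84 and -5.38, SE 0.11, n = 3, adjusted p = 1.1e-07 by limma). The difference between the log2 ratios of Myh6 and Myh7 was -0.03, -0.16 and -0.41 on the 3 arrays (mean -0.20, SD 0.19). That mean is about as large as its SD, and the difference was 0.0040 in the authors' value table. The coding sequences of Myh6 and Myh7 are close relatives, and how far each probe is shared between them was not examined here. The protein-coding genes on either side of the pair did not fall with it: Cmtm5, next to Myh6, stood at 0.14 (SE 0.12, adjusted p = 0.364 by limma) and Ngdn, next to Myh7, at 0.38 (SE 0.09, adjusted p = 0.0058 by limma).

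The promoter windows of the heavy chain pair are shown because both genes moved together at adjacent positions. Each window runs from 250 bases before the annotated start to 30 after it, read 5′ to 3′ on the gene's strand from RefSeq (GRCm38.p6). Capitals mark matches on either strand to 6 motifs. The letters of the TATA box, TATAAA, were searched anywhere in the window. The motif of TEAD factors was searched as CATTCC. For GATA factors the letters were AGATAA, and for Nkx factors they were TNAAGTG. MEF2 and CArG, the motif of SRF, were searched by their usual consensus. Matches of the E-box CANNTG were counted but are not in capitals. The Myh6 window is chr14:54966578-54966857 on the minus strand, and the Myh7 window, the one of its 2 windows with more matches, is chr14:54994597-54994876 on the minus strand.
Myh6: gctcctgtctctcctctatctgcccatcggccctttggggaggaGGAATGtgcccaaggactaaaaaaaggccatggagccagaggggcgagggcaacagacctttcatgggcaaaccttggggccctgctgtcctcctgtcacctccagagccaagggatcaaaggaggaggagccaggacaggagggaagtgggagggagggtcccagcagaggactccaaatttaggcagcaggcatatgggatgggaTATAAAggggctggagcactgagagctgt
Myh7: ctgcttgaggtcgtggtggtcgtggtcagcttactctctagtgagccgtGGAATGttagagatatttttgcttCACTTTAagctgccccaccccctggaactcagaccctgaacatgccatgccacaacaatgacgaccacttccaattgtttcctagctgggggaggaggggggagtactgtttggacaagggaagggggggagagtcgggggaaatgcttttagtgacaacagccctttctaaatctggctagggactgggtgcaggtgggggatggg
Both windows hold CATTCC on the opposite strand, at -206 to -201 from the start in Myh6 and at -201 to -196 in Myh7. Only the Myh6 window of these holds TATAAA, at 2 to 7 past the annotated start, and only the Myh7 window holds TNAAGTG, at -177 to -171. The other Myh7 window, chr14:54994520-54994799, holds matches of CANNTG alone. The CATTCC and TNAAGTG matches of Myh7 thus depend on which annotated start is used.

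**Figure D1:**
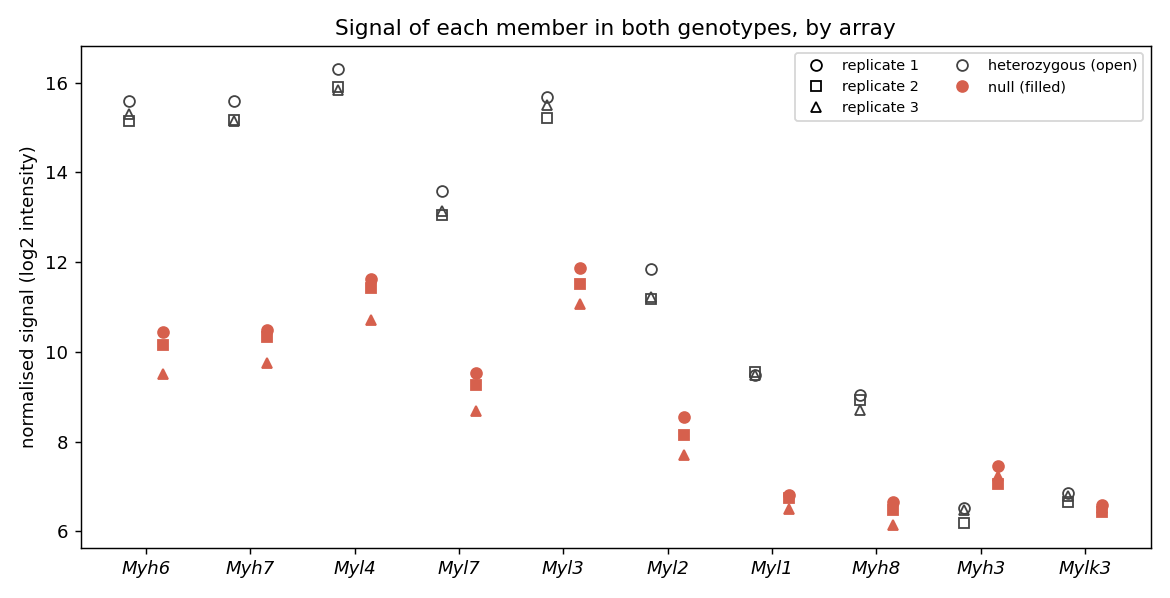
Normalised signal (log2 intensity) of the brightest tested probe of each of the 10 genes on the 3 arrays, with heterozygous RNA as open and null RNA as filled symbols, and a symbol shape for each replicate. Levels are not comparable between genes. The null symbols lie below the heterozygous ones for every gene but Myh3, and the gap is narrowest for Mylk3.

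The atrial light chains followed the heavy chains. Myl4, the essential light chain of the atrium and of embryonic muscle, had heterozygous signals of 16.31, 15.91 and 15.85 and null signals of 11.63, 11.43 and 10.71. Every null value lay below every heterozygous value. Its ratio was -4.77 (array values -4.68, -4.48 and -5.14, SE 0.12, n = 3, adjusted p = 1.2e-07 by limma). Myl7, the atrial regulatory light chain, had heterozygous signals of 13.60, 13.05 and 13.15 and null signals of 9.52, 9.26 and 8.68. Its ratio was -4.11 (array values -4.07, -3.79 and -4.47, SE 0.12, n = 3, adjusted p = 1.6e-07 by limma). These falls left 3.67% of the heterozygous signal of Myl4 and 5.78% of that of Myl7.

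The ventricular light chains fell as well, by less than their atrial counterparts on each array. Myl3, the essential light chain of the ventricle and of slow muscle, had heterozygous signals of 15.68, 15.22 and 15.51 and null signals of 11.88, 11.51 and 11.06. Its ratio was -3.98 (array values -3.80, -3.71 and -4.45, SE 0.14, n = 3, adjusted p = 2.6e-07 by limma). Myl2, the ventricular regulatory light chain, had heterozygous signals of 11.85, 11.17 and 11.22 and null signals of 8.55, 8.14 and 7.71, also without overlap. Its ratio of -3.29 was the smallest fall of the 6 cardiac chains (array values -3.30, -3.03 and -3.52, SE 0.11, n = 3, adjusted p = 1.9e-07 by limma).

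Atrial and ventricular partners of the same kind were then compared within arrays. The regulatory pair, Myl7 minus Myl2, differed by -0.77, -0.76 and -0.95 (mean -0.83, SD 0.11), so that the fold by which Myl7 fell was 1.77 times that of Myl2. The essential pair, Myl4 minus Myl3, differed by -0.88, -0.77 and -0.69 (mean -0.78, SD 0.10), a factor of 1.72. Both differences had the same sign on all 3 arrays and were several times their SD. The two-sided exact sign permutation test gave p = 0.25 for each (0.25 after Benjamini-Hochberg adjustment over 6 pairs), the smallest p that 3 arrays allow, so the test cannot pass at 0.05. Under the 16 alternatives of processing both kept their sign. Apart from the setting with replicate 3 as labelled, the mean difference ranged from -0.93 to -0.68 for the regulatory pair and from -0.83 to -0.73 for the essential pair.

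The windows of Myl3 and Myl7 are shown because they are the 2 member windows with a CArG match. They lie at chr9:110763428-110763707 on the plus strand and chr11:5898753-5899032 on the minus strand (GRCm38.p6), with capitals as above.
Myl3: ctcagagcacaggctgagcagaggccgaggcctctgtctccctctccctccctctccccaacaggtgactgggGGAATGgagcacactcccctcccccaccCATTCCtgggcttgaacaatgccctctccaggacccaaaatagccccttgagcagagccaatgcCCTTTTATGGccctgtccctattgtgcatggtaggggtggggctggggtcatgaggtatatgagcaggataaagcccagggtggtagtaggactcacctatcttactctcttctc
Myl7: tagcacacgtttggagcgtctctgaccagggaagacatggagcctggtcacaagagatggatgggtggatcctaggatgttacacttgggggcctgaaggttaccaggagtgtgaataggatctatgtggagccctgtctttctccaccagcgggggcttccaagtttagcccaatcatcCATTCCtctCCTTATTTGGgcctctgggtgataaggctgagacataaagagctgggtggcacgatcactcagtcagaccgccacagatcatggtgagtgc
The CArG match lies at -85 to -76 in Myl3 and at -61 to -52 in Myl7, and each window also holds CATTCC, Myl3 at 2 places. CArG was found in 1.56% of all 32841 promoter windows of this length, and in 2 of the 13 windows of the 10 genes. CATTCC was found in 13.9% of all windows and in 6 of the 13, those of Myh6, Myh7, Myl1, Myl3, Myl7 and Mylk3. TATAAA was found in 5 of the 13 (13.1% of all), AGATAA in 2 (10.7%), TNAAGTG in 1 (10.96%), MEF2 in 1 (3.06%) and CANNTG in 11 (70.1%). Only the TATAAA match of Myh3 lies upstream on the gene's own strand, at -29 to -24. That of Myh6 lies past the start, and those of Myh8, Myl1 and Myl2 are on the opposite strand, from -96, -95 and -216. The MEF2 match, in Myh8, overlaps a TATAAA match. These shares are a description, and the window given for Myl4 held none of the 7.

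**Figure D2:**
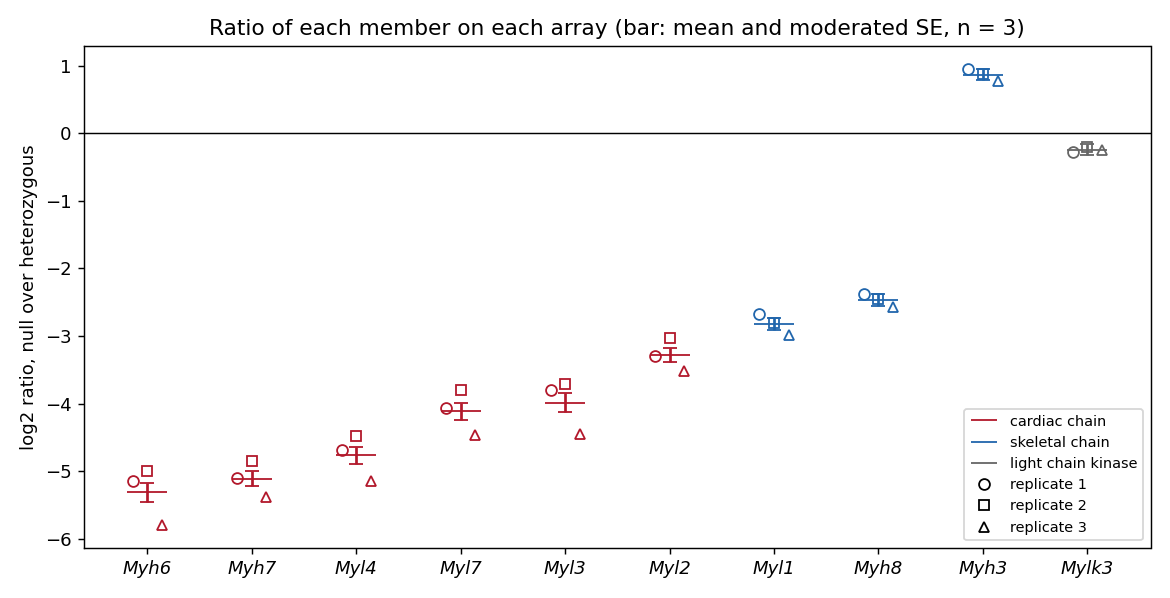
Log2 ratio of null over heterozygous RNA for each gene, with the 3 arrays as symbols and the mean with its moderated SE as a bar (n = 3). The 6 cardiac chains lie between -5.31 and -3.29 on average, Myl1 and Myh8 above them, Mylk3 near 0 and Myh3 above 0.

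The cardiac chains also varied together between arrays. Their median was -4.38 on replicate 1, -4.14 on replicate 2 and -4.80 on replicate 3. All 6 were lowest on replicate 3 and all 6 highest on replicate 2. Of all genes at least 2-fold lower, 45.9% were lowest on replicate 3. The share highest on replicate 2 was not counted. The order was not particular to the chains: Hopx, Tnnc1, Actn2 and Mybpc3 shared it, while Ttn and Myocd did not. The SD of the log2 ratios of all genes was 0.66, 0.69 and 0.71 on replicates 1 to 3, so replicate 3 was only slightly wider as a whole. In the normalised signals the 6 chains spanned 0.73 to 0.94 between the 3 null samples and 0.44 to 0.68 between the 3 heterozygous samples, and the null span was the wider for all 6. Replicate 3 is also the array taken to have null RNA in Cy3, so a difference of dye and of culture cannot be told apart there. With a dye term in the fit, Myh6 stood at -5.43 and Myl2 at -3.34.

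The skeletal chains did not move as a block. Myl1, the essential light chain of fast skeletal muscle, had heterozygous signals of 9.49, 9.55 and 9.48 and null signals of 6.81, 6.73 and 6.50. The heterozygous values were nearly equal and all null values were far below them. Its ratio was -2.83 (SE 0.09, n = 3, adjusted p = 2.0e-07 by limma). A second Myl1 probe, for another RefSeq transcript of the gene, was not well above background in null RNA on any array. That bounds its fall at 1.49-fold or more (log2 ratio -0.58). It too passed the filter through heterozygous RNA alone, so its test adds no support. Myh8, the perinatal heavy chain, had heterozygous signals of 9.05, 8.92 and 8.71 and null signals of 6.66, 6.47 and 6.14. Its ratio was -2.47 (SE 0.08, n = 3, adjusted p = 2.5e-07 by limma), and its other probe was not well above background in either genotype.

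Myh3, the embryonic skeletal heavy chain, went the other way. Its heterozygous signals were 6.51, 6.17 and 6.47 and its null signals 7.47, 7.05 and 7.24, close to the lower end of the scale but without overlap. The ratio was 0.86 (array values 0.95, 0.87 and 0.77, SE 0.08, n = 3, adjusted p = 4.4e-05 by limma), a 1.82-fold rise. Its second probe rose by 0.40 (SE 0.09) and was well above background in heterozygous RNA on 2 of the 3 arrays. That probe passed the filter through null RNA alone, where it was brighter, so its test adds no support. Within arrays, Myh8 minus Myh3 was -3.34, -3.32 and -3.33 (mean -3.33, SD 0.0093). That SD does not cover the processing: apart from replicate 3 as labelled, the alternatives gave means from -6.56 to -2.35. Myh3 and Myh8 belong to the same cluster of skeletal heavy chains on chromosome 11. The cluster's other genes, Myh1, Myh2, Myh4 and Myh13, were not well above background in heterozygous RNA on any array and were not tested. The Myh3 window, shown as that of the only member that rose, is chr11:67078050-67078329 on the plus strand (GRCm38.p6).
Myh3: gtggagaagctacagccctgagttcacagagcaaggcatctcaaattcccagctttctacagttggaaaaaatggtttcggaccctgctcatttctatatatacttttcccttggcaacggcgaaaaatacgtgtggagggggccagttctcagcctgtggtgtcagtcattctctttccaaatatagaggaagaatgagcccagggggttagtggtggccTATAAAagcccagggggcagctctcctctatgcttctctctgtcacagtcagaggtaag
It holds TATAAA at -29 to -24 and none of the other motifs in capitals.

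Mylk3 phosphorylates the ventricular regulatory light chain. Its heterozygous signals were 6.86, 6.65 and 6.78 and its null signals 6.57, 6.44 and 6.52. The genotypes did not overlap, but the gap was small. Its ratio was -0.25 (array values -0.28, -0.21 and -0.26, SE 0.08, n = 3, adjusted p = 0.0268 by limma). That call was lost without replicate 1 (adjusted p = 0.125), without replicate 2 (adjusted p = 0.0874), with median centring (adjusted p = 0.139) and in the authors' value table (adjusted p = 0.228). Its other probe was not well above background in either genotype.

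Cardiac chains fell further than skeletal chains when like chains were set side by side. Myl3 minus Myl1, both essential light chains, was -1.12, -0.89 and -1.46 (mean -1.16, SD 0.28), and Myh7 minus Myh8, both heavy chains, was -2.72, -2.39 and -2.82 (mean -2.64, SD 0.22). Each gave exact permutation p = 0.25, the smallest possible. The size of this gap rests on how the low signals of Myl1 and Myh8 are treated. The offset of 50 added to every signal pulls dim ratios towards 0. With an offset of 0, Myl3 minus Myl1 was -0.42 and Myh7 minus Myh8 was -1.72. On the signals as processed by the scanner software they were -0.09 and -1.07, and Myh8 at -4.10 lay below Myl3 at -4.06 and Myl2 at -3.56, while Myl1 at -3.97 lay below Myl2. With an offset of 0, Myl1 at -3.59 also lay below Myl2 at -3.52. The cardiac chains below both Myl1 and Myh8 were thus 6 of 6 as reported, 5 of 6 with an offset of 0 and 4 of 6 with processed signals. The same settings raised the ratio of Myh3 to 1.73 and 2.46, while Myh6 stayed at -5.38 and -5.35.

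**Figure D3:**
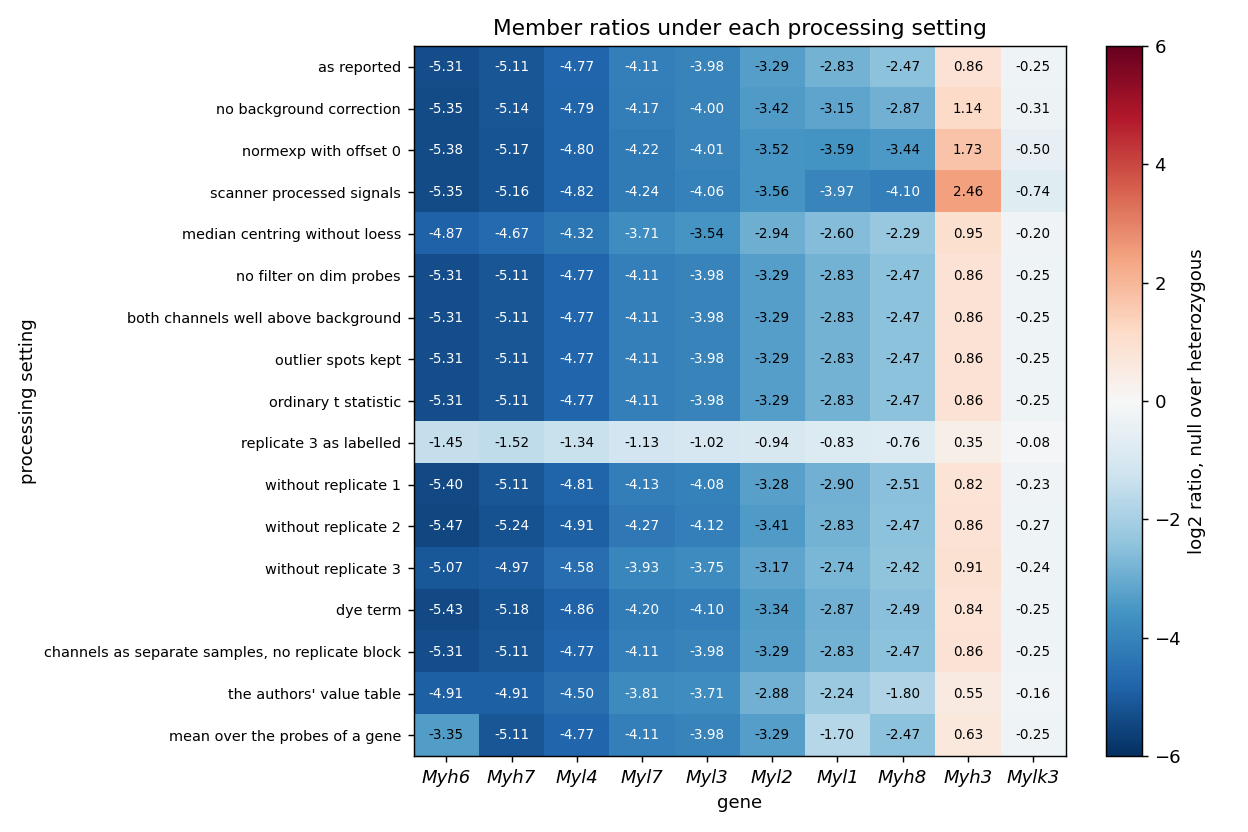
Log2 ratio of null over heterozygous RNA for each gene under the reported processing and 16 alternatives, as numbers and colour (blue lower, red higher in null RNA). The bright cardiac chains change less with the handling of background than Myl1, Myh8, Myh3 and Mylk3 do. They lie nearer 0 with median centring (Myh6 at -4.87, Myl2 at -2.94) and in the authors' value table (Myl2 at -2.88). So they do with replicate 3 as labelled and, for Myh6, as the mean over probes.

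Other myosin chains were measured as well. Of 3 other striated myosins tested, Myh7b, a slow heavy chain, fell by 1.62 (SE 0.10) and Myl6b fell by 0.80 (SE 0.10), while Mylpf, the fast skeletal regulatory chain, stood at -0.07 (SE 0.09, adjusted p = 0.526 by limma). Of 7 non-muscle and smooth muscle myosin chains tested, 5 fell and 0 rose, with a median of -0.38. The largest changes were Myl9 at -1.08 (SE 0.09), Myh14 at -0.77 (SE 0.11) and Myl12b at -0.53 (SE 0.09), and with median centring only 2 of the 7 fell. Of 12 genes of light chain phosphorylation, such as kinases, phosphatase subunits and calmodulins, 2 fell, 0 rose and 10 did not pass, with a median of 0.07. Ppp1r12a, the targeting subunit of myosin phosphatase, fell by 1.15 (SE 0.11) and Rock2, a kinase that restrains it, fell by 0.40 (SE 0.11). With median centring, 5 of the 12 rose and 1 fell. The median of all 19802 genes was 0.0034, and 30.1% of them fell and 30.2% rose.

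Partners of the thick filament fell with the chains. Of 15 tested, 13 fell and 2 rose, beside 30.1% and 30.2% of all genes, with a median of -0.84. Some of the 13 were well above background in null RNA on only 1 array, so they passed the filter through heterozygous RNA alone. With both genotypes required to be well above background, 11 fell and 2 rose, and with median centring 10 fell and 2 rose. Mybpc3, the cardiac myosin-binding protein C, fell by 3.97 (SE 0.09), Ttn, the spring protein titin, fell by 3.38 (SE 0.13) and Myo18b, an unconventional myosin needed for sarcomeres, fell by 2.64 (SE 0.09). Without moderation of the variance, 6 of the 15 fell and 1 rose. The 5 genes whose ratios on the 3 arrays came closest to the mean of the 6 cardiac chains, among 14067 genes outside the set with a RefSeq symbol that is no clone name or predicted model, were Cox6a2 (root mean square difference 0.16), Slco2a1 (0.40), Cubn (0.44), Mybpc3 (0.48) and Cck (0.49). They are a description over 3 arrays.

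Other markers of cardiac muscle cells fell less far than the chains. All 8 of the cardiomyocyte markers tested fell, beside 30.1% of all genes, with a median of -2.20 and a range of -3.18 to -1.01. The marker at -1.01 was well above background in null RNA on 2 arrays, so it passed the filter through heterozygous RNA alone. Falls were called for 7 of the 8 without replicate 2 and for 5 without moderation of the variance. Tnnc1, cardiac troponin C, fell by 3.18 (SE 0.15), Actn2, an actin crosslinker of the Z-disc, fell by 2.93 (SE 0.10) and Tnnt2, measured on 2 arrays, fell by 2.73 (SE 0.17). All 6 cardiac chains had lower ratios than all 8 markers. With an offset of 0 and with processed signals, 5 of the 6 did, since Actn2 then lay at -3.61 and -4.02, below Myl2. Summed normalised signals of the 8 markers ran from 20118 to 26982 in null and from 74290 to 85830 in heterozygous samples. Such a sum rests mostly on its brightest probe and is no measure of the amount of a cell type. Pln was the marker not tested, being well above background in heterozygous RNA on 2 arrays and in null RNA on none.

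Of 18 cardiac factors tested, which include known regulators of these promoters, 11 fell, 2 rose and 5 did not pass, with a median of -0.33. Of all genes, 30.1% fell and 30.2% rose. Myocd, the coactivator of SRF, fell by 2.88 (SE 0.10), Nkx2-5 fell by 2.23 (SE 0.15), and the orphan nuclear receptor Nr2f1 stood higher, at 2.30 (SE 0.10). Other factors of the motifs searched were named after their values were seen. Gata4 fell by 1.52 (SE 0.10), Gata6 fell by 0.36 (SE 0.11) and Tead1 fell by 1.03 (SE 0.12). Srf stood at 0.0025, Mef2a at -0.24, Mef2c at -0.09 and Mef2d at -0.02, and none of these 4 passed (adjusted p = 0.986, 0.0676, 0.381 and 0.846 by limma). The count that fell was 7 of 18 without replicate 2, with median centring, without the replicate block and in the authors' value table, and 4 without moderation of the variance.

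**Figure D4:**
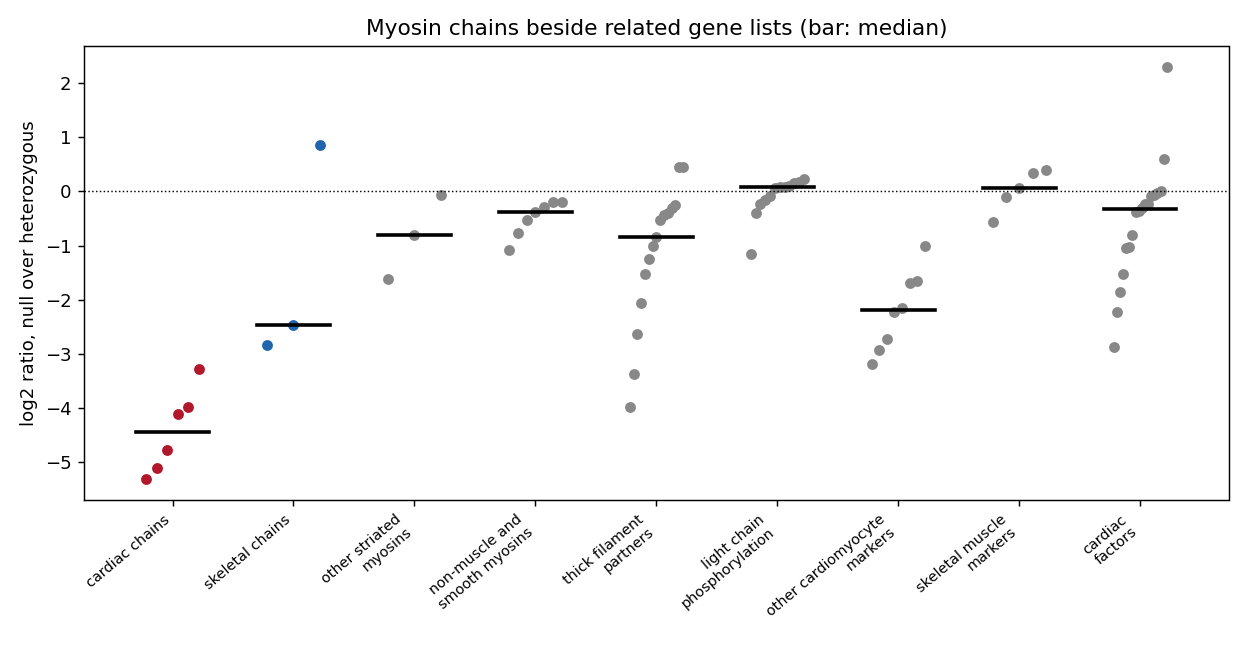
Log2 ratio of null over heterozygous RNA of each tested gene (points) in the cardiac chains, the skeletal chains and 7 related lists, with the median of each as a bar. The cardiac chains (median -4.44) lie lowest. The 3 skeletal chains (median -2.47) are split, with Myl1 and Myh8 below 0 and Myh3 above it. The other cardiomyocyte markers have a median of -2.20. As the mean over probes, the skeletal median lay above that of these markers.

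Markers of other cell types were measured too, and their part in the falls of the myosins was not tested. Of all genes, 30.1% fell and 30.2% rose, and the counts of the skeletal and smooth muscle markers are near those shares. The skeletal muscle regulators Myod1, Myog, Myf5 and Myf6 were not well above background in heterozygous RNA on any array. Of 5 skeletal markers tested of 12, 1 fell and 2 rose: Acta1 at -0.57 (SE 0.12), Tnni2 at 0.40 (SE 0.11) and Pax3 at 0.35 (SE 0.11). The 2 rises became 1 without replicate 3 and in the authors' value table, and 0 without the replicate block, and the fall was lost with median centring. Summed signals of the 5 were 2047 to 2575 in null and 2287 to 3331 in heterozygous samples. These sums, and those below, weigh the brightest probes most. Of 7 smooth muscle markers, 2 rose and 2 fell, with Actg2 at 1.95 (SE 0.10), Des at -1.19 (SE 0.09) and Tagln at 0.56 (SE 0.08). With median centring 4 of the 7 rose and 1 fell. Of 8 fibroblast or feeder markers, 6 rose and 1 fell, with Col1a2 at 1.59 (SE 0.16), Lum at 1.17 (SE 0.20) and Dcn at 1.05 (SE 0.20), and sums of 50903 to 74229 in null against 21660 to 36939 in heterozygous samples. Their 1 fall, of Pdgfra, was lost with median centring and without the replicate block. Of 5 pluripotency markers 4 rose and 1 fell, with Nanog at 2.01, Pou5f1 at 1.71 and Esrrb at 1.20. All 6 endoderm markers fell, with Amn at -3.14, Ttr at -3.13 and Apoa1 at -2.03. All 5 blood markers rose, with Hba-x at 2.38, Tal1 at 1.97 and Gata1 at 1.97. Without moderation of the variance, rises were called for 0 of the 5 skeletal, 1 of the 8 fibroblast, 1 of the 5 pluripotency and 2 of the 5 blood markers. In that setting, falls were called for 4 of the 6 endoderm markers.

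The chromosomal neighbours of the members were also measured. Of 24 tested protein-coding genes within 2 places of a member, other than members, 6 fell and 11 rose, beside 30.1% and 30.2% of all genes, and the median was 0.19. The lowest was Pth1r, beside Myl3, at -2.06 (SE 0.09), and the highest Itgb3, beside Myl4, at 1.30 (SE 0.10). At least 2-fold lower were 2 of the 24, Pth1r and Aebp1, beside 6.03% of all genes. These neighbours were named after their values were seen. Their share higher lay above that of all genes and their share lower somewhat below it, and neither difference was tested.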

How the data were processed

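Spot intensity values of both channels, with local backgrounds, were deposited. Per the file headers, Agilent Feature Extraction 11.5.1.1 made them. In the submitters' processing notes the version is 8.5.1.1. The authors' deposited value table was read as log2 ratios, because over spots with a mean log2 intensity above 11 its slopes against the scanner values were 0.946, 0.953 and -0.948. Its normalization and centring are not known, and its column medians were -0.10, -0.11 and 0.07.

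With limma 3.58.1 in R 4.3.3, foreground and background medians were corrected by normexp (offset 50), and each array then had its log2 ratios normalized by loess. Control spots and outlier spots had weight 0, and spots of a probe were averaged. Channel signals given in the text also had Aquantile scaling. A probe was kept if well above background in null or in heterozygous RNA on all 3 arrays, which left 24574 of 39429. Ratios were tested against 0 with lmFit and eBayes, adjusted by Benjamini-Hochberg over all kept probes. Each gene took its brightest probe. Every SE is the moderated SE of eBayes. A bound ("at least") replaces a dim signal with the array's lowest signal well above background, unless the probe's own is higher, and is open to dye bias. The fit was tested on simulated data.

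Array accessions were matched, without versions, to a RefSeq table (GRCm38.p6), which named 28025 probes. A probe without a name there stood under its own array identifier. The 19802 genes tested thus include unnamed entries, and a gene may count more than once among them. The array design is on mm9 per the file headers, so that table's gene coordinates are not printed. Promoter windows are RefSeq's.

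The members and all gene lists were chosen with earlier results of these data known. Genes named are the members, Hopx, up to 3 called genes of each list with the largest change, and the 5 genes nearest the mean of the cardiac chains over the arrays. Other genes named (Pdgfra, list members not called or not tested, factors of the searched motifs, and chromosomal neighbours) were chosen after their values were seen. Within-array pairs were compared by exact sign permutation. Replicates share 1 slide and 1 scan, so no block was possible for either. The alternatives were background, normalization, filter, flags, variance, direction, replicates, dye, pairing, source table and probe rule.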

Additional observations from a re-analysis of the deposited data

How the results depend on the processing

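Of the 10 members, 9 kept their direction and their call under all alternatives run other than replicate 3 as labelled, and Mylk3 kept its direction. With replicate 3 as labelled, no member was called, each at an adjusted p of 1.00 by limma, and the ratios were -1.45 (Myh6), -1.52 (Myh7), -0.94 (Myl2), -1.02 (Myl3), -1.34 (Myl4), -1.13 (Myl7), -0.83 (Myl1), -0.76 (Myh8), 0.35 (Myh3) and -0.078 (Mylk3). Then 0 genes were called higher, 0 lower and 0 members lower, the medians were -1.24 for cardiac and -0.76 for skeletal chains, and Myh6 minus Myh7 was 0.074. Turning 1 of 3 arrays sets opposite signs against each other.

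Mylk3 also lost its call with median centring (-0.20), without replicate 1 and without replicate 2 but not without replicate 3 (-0.27 to -0.23 over the 3 fits), with each channel treated as its own sample, no replicate block (-0.25, adjusted p = 0.0898 by limma), and in the authors' value table (-0.16). Without the replicate block, 8 members were called lower, and no other member changed its call. The median of the skeletal chains was -2.87 without background correction, -3.44 with an offset of 0, -3.97 with processed signals, -2.29 with median centring, -1.80 in the authors' table and -1.70 as the mean over probes. That of the cardiac chains was -4.02 with median centring and -4.05 as the mean over probes. Myh6 minus Myh7 was 0.0040 in the authors' table and 1.76 as the mean over probes, which takes in the dim Myh6 probe. Over all genes, median centring called 3008 lower, the ordinary t statistic 1964 higher and 2034 lower, and 3910 were called higher from the value table of the authors. Of 384 recomputed counts of list members called, 332 stayed within 1.5 times, and of the 52 others 18 were with replicate 3 as labelled and 15 with the ordinary t statistic. Causes were not tested unless given. Dim probes limit what Myh3, Myh8, Myl1 and Mylk3 can show.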
